A study of Mus musculus with 33 samples.

Results

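A set of 35 genes of meiosis and the synaptonemal complex was followed by RNA-seq through 11 conditions of mouse ESCs. The genes were chosen by name, for known parts in the making of eggs and sperm, with earlier results of these data known. The rule that chose them used no measured level. All 35 were found by symbol among the 55487 genes listed, 24 of them had at least 10 counts in every one of the 33 libraries, and 0 stayed below 10 counts in every library.

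Meiosis is the pair of divisions by which a germ cell makes haploid gametes. In its first prophase the DNA is cut on purpose, each cut is repaired from the homologous chromosome, and the paired homologs are held together by a protein zipper, the synaptonemal complex, built on axes of meiosis-specific cohesin. Outside the germline most of these genes are silent, and in ESCs several of them are kept so by chromatin repressors. SETDB1 is a methyltransferase that places H3K9 methylation, a repressive histone mark, and the HP1 proteins, HP1α (Cbx5), HP1β (Cbx1) and HP1γ (Cbx3), bind that mark.

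All cells were C57BL/6 ESCs, with 3 libraries for each condition. The Hp1 mutants carried deletions made with CRISPR/Cas9 and were labelled HP1αKO, HP1βKO, HP1γKO, HP1β/αDKO, HP1γ/αDKO, HP1β/γDKO and HP1β/γ/αTKO, and are written here as Hp1αΔ/Δ to Hp1α/β/γΔ/Δ. The triple mutant came from Hp1α/βΔ/Δ cells with a floxed Hp1γ gene that was deleted by transfection of Cre. The study took this RNA days after the transfection and reports extensive apoptosis and cell-cycle arrest in these cells. For RNA-seq it describes the floxed cells given a control vector beside them, but no genotype label names such cells. Setdb1Δ/Δ cells, labelled SETDB1KO, were made by Cre from floxed ESCs, and those, labelled SETDB1FF and written here as Setdb1F/F, were their control. Both sets of wild-type ESCs carried the genotype label WT and are named by their titles. As deposited, the NK set was the control of the single mutants, of Hp1α/βΔ/Δ and of the triple mutant, and the WT set that of Hp1α/γΔ/Δ and Hp1β/γΔ/Δ. Whether the libraries of a mutant came from more than 1 clone was not given in the sources used here.

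Total counts ran from 17331005 to 25743236 per library. Levels are given as CPM, counts scaled to a common library size, with all libraries normalised together by edgeR's TMM factors, so that 3 counts came to 0.116 to 0.177 CPM in a library. In Setdb1Δ/Δ cells Setdb1 itself was at 71.6, 68.5 and 67.7 CPM, below all Setdb1F/F libraries at 136, 133 and 131 CPM, and Cbx5, Cbx1 and Cbx3 in the triple mutant were all below the NK set. Replicate 2 of Hp1α/γΔ/Δ stood apart from its group, with a chi-square of 143 and 153 per gene against its fellows, where other pairs of replicates had 1.92 to 12.5. ESCs were grown on feeder fibroblasts, and 9 fibroblast marker genes summed to 4.67 to 50.7 CPM in a library, lowest in Setdb1Δ/Δ cells. The pluripotency markers, 8 genes with Pou5f1 and Nanog among them, summed to 6597 to 6621 CPM in Setdb1F/F and 4353 to 4382 CPM in Setdb1Δ/Δ cells, and to 2541 to 2547 CPM in the NK set and 1242 to 1281 CPM in the triple mutant. Of these 8, Tfcp2l1 and Dppa5a were called lower in Setdb1Δ/Δ cells, where Nanog, Sox2 and Zfp42 had log2 fold changes of -0.061, 0.13 and 0.67, and 5 were called lower in the triple mutant.

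Most of the meiosis genes were up-regulated on loss of Setdb1, and a smaller number on loss of all 3 Hp1 genes. Calls needed an absolute log2 fold change above 1 and, in edgeR's quasi-likelihood test, an adjusted p (Benjamini-Hochberg, over all genes tested) below 0.05. In Setdb1Δ/Δ cells 29 of the 35 meiosis genes were called, 28 higher and 1 lower, where 29.9% of all genes tested were called, 18.5% higher. In the triple mutant 32 passed the filter on low counts and 19 of these were called, 17 higher and 2 lower, where 42.3% of all genes were called, 25.1% higher. The median log2 fold change of the meiosis genes was 4.09 in Setdb1Δ/Δ cells and 1.12 in the triple mutant, where the medians of all genes tested were 0.015 and 0.035. A gene silent in the control could pass the filter only by being high in the mutant, and 6 genes had under 10 counts in every Setdb1F/F library (Syce3, Tex12, Rad21l, Spo11, Meiob and Spata22). All 6 were called there, and the counts and medians include them. In every NK library Tex12, Spo11 and Majin had under 10 counts. Of these 3 only Majin was tested in the triple mutant, where it was called higher, and the count and median there include it.

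The scale bore on some of these calls. In an alternative chosen after the data were seen, the deposited TPM was tested by limma on log2(TPM + 0.1) without rescaling between libraries. On that scale the median log2 fold change of all genes was 0.49 in Setdb1Δ/Δ cells and 0.41 in the triple mutant. The calls over all genes then split into 4540 higher and 830 lower in Setdb1Δ/Δ cells, against 3048 and 1870 on counts, and 5445 higher and 1596 lower in the triple mutant, against 4401 and 2999. Of the meiosis genes 29 were called higher and 0 lower on loss of Setdb1, and 18 higher and 1 lower in the triple mutant. Mnd1 lost its call in Setdb1Δ/Δ cells and Tex14 gained one. On loss of all Hp1 genes Prdm9, Tex11, Hormad2 and Dmc1 lost theirs, with log2 fold changes of 0.69, 2.14, 1.57 and -0.85 on TPM, and Stra8, Zcwpw1, Tex14 and Rad21l gained one, with 1.11, 1.31, 1.12 and 1.03.

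The single and double mutants had fewer calls, in both directions. In Hp1αΔ/Δ 6 of 29 tested genes were called, 4 higher, with 4.87% of all genes called, 1.56% higher and 3.31% lower. In Hp1βΔ/Δ 9 of 30 were called, 4 higher and 5 lower, with 9.1% of all genes called, 2.75% higher and 6.36% lower. In Hp1γΔ/Δ 3 of 28 were called, all higher, with 5.59% of all genes called, 2.04% higher and 3.55% lower, and 5 were called without Hp1γΔ/Δ replicate 2 or NK replicate 1. In Hp1α/βΔ/Δ 3 of 30 were called, 2 higher, with 8.15% of all genes called, 2.96% higher and 5.19% lower. Each fit without 1 library called more there, 4 to 7. In Hp1α/γΔ/Δ 13 of 29 were called, 7 higher and 6 lower, with 23.1% of all genes called, 6.75% higher and 16.3% lower. In Hp1β/γΔ/Δ 8 of 31 were called, 4 higher and 4 lower, with 11.9% of all genes called, 7.32% higher and 4.54% lower. Over the 8 mutants 31 genes were called at least once, and Syce2, Trip13, Psmc3ip and Mlh3 never were, with every library and the deposited control. Psmc3ip had a log2 fold change of 0.974 in Hp1α/γΔ/Δ, just below the fold threshold, and with the NK set as the control it was 1.034 and called. The share of all genes called at least once was not counted, so the 31 has no background. In bulk RNA a change in the share of cells that express a gene and a change in RNA per cell cannot be told apart.

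**Figure D1:**
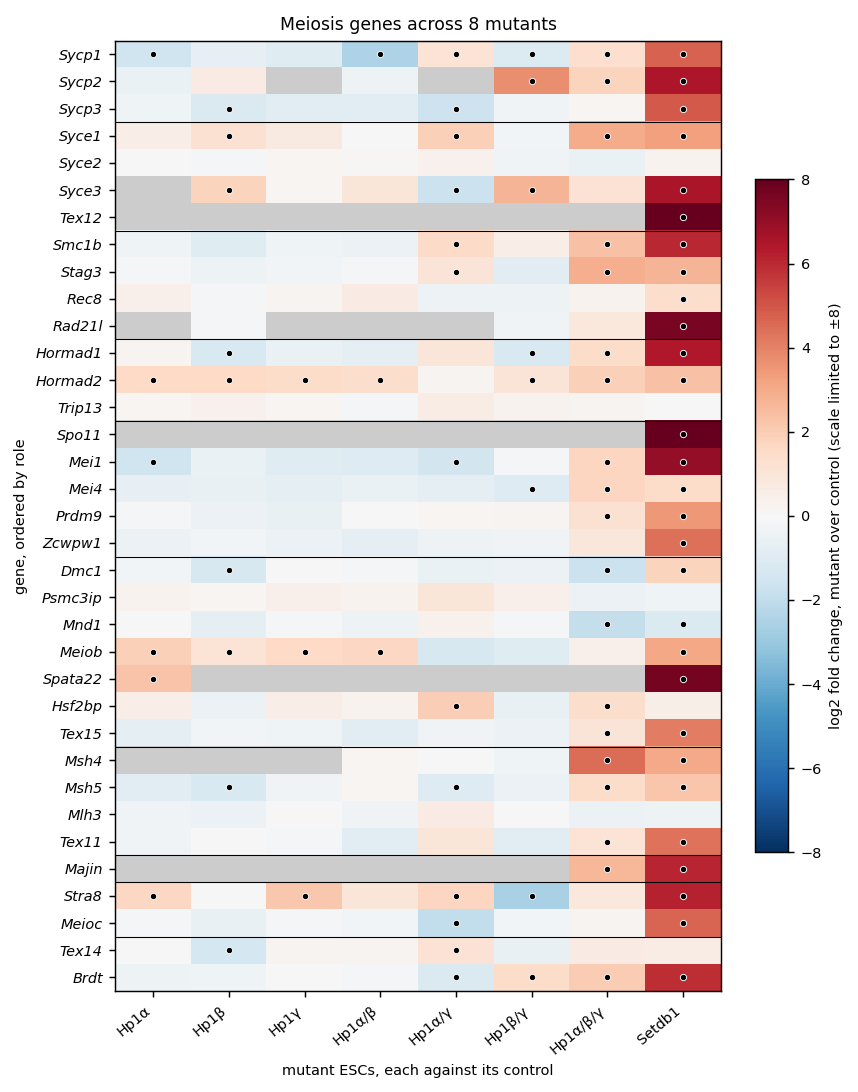
Log2 fold change of each of the 35 meiosis genes (rows, ordered by role, with lines between roles) in 8 mutants, each against its own control (columns). Red is higher and blue lower in the mutant, with the colour scale limited to ±8, grey cells did not pass the filter on low counts, and dots mark called genes. The Setdb1 column holds 28 genes called higher and the Hp1α/β/γ column 17, while the other columns hold 2 to 7.

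Promoter sequences are shown for the genes called higher in both Setdb1Δ/Δ and triple-mutant cells with the largest sums of the 2 log2 fold changes, which are Mei1, Majin, Smc1b, Sycp2, Brdt and Hormad1. Each window holds 250 bases before and 50 after a RefSeq start site, 5′ to 3′ on the gene's strand, on build GRCm38.p6. Majin was not matched in the table, nor were Meiob, Spo11, Tex11 and Tex15, so that 30 of the 35 genes had a window. Capitals mark CACGTG, the E-box bound by factors of the basic helix-loop-helix class such as MGA with MAX, and GGCGGGA, a match to the motif of E2F6 and its relatives, on either strand.

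Mei1: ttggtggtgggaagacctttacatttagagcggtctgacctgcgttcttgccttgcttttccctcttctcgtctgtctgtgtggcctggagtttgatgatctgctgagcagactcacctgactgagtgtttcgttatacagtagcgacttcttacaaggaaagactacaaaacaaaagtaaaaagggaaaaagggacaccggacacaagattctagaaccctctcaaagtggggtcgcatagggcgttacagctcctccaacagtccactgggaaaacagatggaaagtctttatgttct

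Smc1b: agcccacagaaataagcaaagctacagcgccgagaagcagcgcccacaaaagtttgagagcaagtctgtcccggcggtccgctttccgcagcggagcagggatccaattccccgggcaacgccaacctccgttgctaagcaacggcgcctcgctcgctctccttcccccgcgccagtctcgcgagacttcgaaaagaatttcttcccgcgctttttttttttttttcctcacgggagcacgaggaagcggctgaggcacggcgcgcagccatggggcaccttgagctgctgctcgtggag

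Sycp2: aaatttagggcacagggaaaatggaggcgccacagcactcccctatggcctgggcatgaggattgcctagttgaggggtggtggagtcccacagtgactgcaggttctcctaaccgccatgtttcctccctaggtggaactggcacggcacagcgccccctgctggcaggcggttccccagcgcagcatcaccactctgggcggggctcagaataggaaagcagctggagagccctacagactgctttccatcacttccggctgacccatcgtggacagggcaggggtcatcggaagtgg

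Brdt: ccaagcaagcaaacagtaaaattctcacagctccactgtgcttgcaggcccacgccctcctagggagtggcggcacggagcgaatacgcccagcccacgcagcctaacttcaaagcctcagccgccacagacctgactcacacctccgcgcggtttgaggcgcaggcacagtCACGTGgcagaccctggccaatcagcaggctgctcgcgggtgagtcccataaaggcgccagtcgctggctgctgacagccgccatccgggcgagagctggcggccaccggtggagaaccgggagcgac

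Hormad1: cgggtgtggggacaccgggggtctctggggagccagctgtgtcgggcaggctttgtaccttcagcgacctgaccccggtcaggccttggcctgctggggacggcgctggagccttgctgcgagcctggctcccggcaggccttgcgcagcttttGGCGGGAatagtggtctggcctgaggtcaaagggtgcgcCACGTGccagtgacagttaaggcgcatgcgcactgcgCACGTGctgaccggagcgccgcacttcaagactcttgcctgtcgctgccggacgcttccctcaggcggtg

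The Hormad1 window (chr3:95559427-95559726, plus strand) held 2 E-boxes, which begin 57 and 20 bases before the start site, and an E2F motif that begins 96 bases before it. The Brdt window (chr5:107330944-107331243, plus strand) held 1 E-box that begins 78 bases before the start. The windows of Mei1 (chr15:82082226-82082525, plus strand), Smc1b (chr15:85131908-85132207, minus strand) and Sycp2 (chr2:178407609-178407908, minus strand) held neither motif, and the Mei1 window lies inside the gene as GENCODE M21 places it on the same build (chr15:82069996-82126814). Of all genes with a window, 8.09% had CACGTG in a window and 12.8% had GGCGGGA. Among the 30 meiosis genes 7 had the first (Sycp1, Sycp3, Syce2, Tex12, Stag3, Hormad1 and Brdt) and 8 the second (Syce2, Tex12, Hormad1, Prdm9, Psmc3ip, Spata22, Msh5 and Tex14). The ratio of observed to expected CpG had a median of 0.71 over the 36 windows of the meiosis genes and 0.38 over all 32851 windows, and was 1.08 for Smc1b, 0.74 for Brdt, 0.71 for Hormad1, 0.49 for Mei1 and 0.36 for Sycp2. These matches describe the letters of the windows only.

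RNAs for 6 of the 7 synaptonemal complex proteins in the set were called higher in Setdb1Δ/Δ cells, and Syce2 was not called. SYCP1 makes the transverse filaments that bridge the homologs, and SYCP2 and SYCP3 coat the axes as lateral elements. Sycp1 was at 8.75, 8.41 and 7.85 CPM in the Setdb1F/F libraries and at 215, 224 and 207 CPM in the Setdb1Δ/Δ libraries, a log2 fold change of 4.70 ± 0.068 (SE, edgeR adjusted p = 3.31e-21). Sycp2 went from 1.25, 1.92 and 1.48 CPM to 138, 142 and 133 CPM, a log2 fold change of 6.50 ± 0.15 (SE, edgeR adjusted p = 1.02e-20). Sycp3 went from 3.95, 4.68 and 3.42 CPM to 124, 122 and 109.7 CPM, a log2 fold change of 4.89 ± 0.12 (SE, edgeR adjusted p = 5.73e-19). Every mutant library lay far above every control library for these genes. The first 2 of these were called in the triple mutant and the last was not. Sycp1 was at 3.56, 4.21 and 4.56 CPM in the NK set and 9.27, 10.4 and 10.4 CPM in the triple mutant, a log2 fold change of 1.32 ± 0.14. Sycp2 was at 0.972, 0.834 and 0.291 CPM and 2.49, 2.28 and 2.28 CPM, a log2 fold change of 1.77 ± 0.36. Sycp3 overlapped between the groups in CPM, at 9.58, 9.63 and 9.79 CPM in the NK set and 10.8, 9.13 and 11.03 CPM in the triple mutant. In TPM it did not, at 14.4, 14.5 and 15.7 TPM and 24.4, 21.5 and 24.99 TPM, a log2 fold change of 0.66 below the fold threshold. Sycp3 lies wholly within Chpt1 on the opposite strand, and whether counting used strand was not given in the sources used here. Chpt1 had log2 fold changes of 0.20 in Setdb1Δ/Δ cells and -0.25 in the triple mutant.

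The central element, which locks the transverse filaments together, is made of SYCE1, SYCE2, SYCE3 and TEX12 among others. Syce1 was called in both mutants. It went from 9.85, 10.4 and 10.3 CPM to 97.4, 93.9 and 97.7 CPM on loss of Setdb1, a log2 fold change of 3.25 ± 0.059. It went from 3.01, 2.13 and 3.05 CPM to 21.3, 21.2 and 19.3 CPM on loss of all Hp1 genes, a log2 fold change of 2.95 ± 0.14. Tex12 was near 0 in Setdb1F/F, at 0.05, 0.226 and 0.236 CPM, and at 58.5, 60.6 and 56.04 CPM in Setdb1Δ/Δ cells, a log2 fold change of 8.43 ± 0.46 (SE, edgeR adjusted p = 1.06e-18). Il18, which spans Tex12 on the other strand, rose in the same cells to 7.83, 6.35 and 6.89 CPM with a log2 fold change of 6.86, and its part in the Tex12 value was not tested. Syce3 had 2 counts over the 3 Setdb1F/F libraries and 246 over the 3 Setdb1Δ/Δ libraries, a ratio of 108 with a 95% interval of 29.6 to 897 (exact, counting error only). Its levels in the triple mutant, 0.686, 1.43 and 0.658 CPM, overlapped those of the NK set, 0.925, 0.0926 and 0.242 CPM. Its log2 fold change there, 1.14 ± 0.59, was not called, and without NK replicate 1 it was 2.44 and called. Syce2 was already well expressed in control cells. It was at 54.8 ± 2.82 CPM (SD, n = 3) in Setdb1F/F and 64.6 ± 0.6797 CPM in Setdb1Δ/Δ cells, and at 48.96 ± 1.15 CPM in the NK set and 32.6 ± 1.43 CPM in the triple mutant, changes below the fold threshold.

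The meiotic cohesin subunits build the axis on which the complex assembles. SMC1B replaces SMC1A in the ring, STAG3 is the meiotic STAG subunit, and REC8 and RAD21L are its kleisins. All 4 were called higher in Setdb1Δ/Δ cells. Smc1b went from 3.05, 4.97 and 4.01 CPM to 262, 262 and 248 CPM, a log2 fold change of 6.03 ± 0.11 (SE, edgeR adjusted p = 5.21e-21). Stag3, which was at 61.5, 61.6 and 58.5 CPM in Setdb1F/F, went to 386, 403 and 418 CPM, a log2 fold change of 2.75 ± 0.036. Rad21l went from 0.1, 0.113 and 0.059 CPM, 1 or 2 counts in a library, to 19.5, 18.9 and 16.8 CPM, a log2 fold change of 7.57 ± 0.57. Rec8 changed least, from 13.3, 13.3 and 12.5 CPM to 36.2, 34.5 and 33.2 CPM, a log2 fold change of 1.42 ± 0.066. Smc1b and Stag3 were also called in the triple mutant. Smc1b went from 5.598, 7.504 and 6.35 CPM to 33.4, 30.6 and 32.6 CPM, a log2 fold change of 2.35 ± 0.10. Stag3 went from 12.8, 13.9 and 12.5 CPM to 98.5, 97.3 and 90.9 CPM, a log2 fold change of 2.90 ± 0.064 (SE, edgeR adjusted p = 1.04e-18). The triple-mutant libraries of both lay above every NK library, with no overlap. Rad21l and Rec8 had log2 fold changes of 0.83 ± 0.43 and 0.29 ± 0.093 in the triple mutant and were not called.

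HORMAD1 and HORMAD2 bind unsynapsed axes and promote DNA cutting there, and the ATPase TRIP13 takes them off once the homologs are paired. Hormad1 went from 3.95, 2.65 and 3.31 CPM to 282, 286 and 266 CPM on loss of Setdb1, a log2 fold change of 6.40 ± 0.11 (SE, edgeR adjusted p = 1.41e-21). On loss of all Hp1 genes it went from 3.05, 3.71 and 3.44 CPM to 9.69, 8.84 and 9.36 CPM, a log2 fold change of 1.49 ± 0.15. Its promoter window is the one shown above with 2 E-boxes. Hormad2 was at 11.4, 10.5 and 12.4 CPM in Setdb1F/F and 57.4, 59.4 and 54.8 CPM in Setdb1Δ/Δ cells, a log2 fold change of 2.34 ± 0.068. It was at 1.897, 0.973 and 0.679 CPM in the NK set and 4.46, 5.04 and 3.79 CPM in the triple mutant, a log2 fold change of 1.93 ± 0.30. The level of Hormad2 in Setdb1F/F lay above that in the triple mutant, so that the starting point differed between the 2 controls. Trip13 was at 53.5 to 75.0 CPM in every control and mutant library of these 4 groups and had log2 fold changes of -0.022 ± 0.035 and 0.25 ± 0.051.

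The genes for making and placing the DNA breaks were all called higher in Setdb1Δ/Δ cells, 5 of 5. SPO11 is the topoisomerase-like protein that cuts the DNA, MEI1 and MEI4 are needed for its action, PRDM9 marks the sites with histone methylation, and ZCWPW1 reads those marks. Spo11 had 0 counts in all 3 Setdb1F/F libraries and 4.32, 5.68 and 4.29 CPM in Setdb1Δ/Δ cells, at least 28.8-fold higher against a floor of 3 counts per library. Mei1 went from 0.5001, 0.452 and 0.649 CPM to 67.4, 68.1 and 69.1 CPM, a log2 fold change of 7.003 ± 0.22 (SE, edgeR adjusted p = 8.53e-20). Zcwpw1 went from 13.9, 11.8 and 10.7 CPM to 256, 259 and 249 CPM, a log2 fold change of 4.40 ± 0.066. No Setdb1Δ/Δ library of these genes overlapped a Setdb1F/F library. Prdm9 went from 2.4, 1.75 and 2.12 CPM to 22.9, 24.02 and 21.4 CPM, a log2 fold change of 3.45 ± 0.14, and Mei4 from 4.901, 5.25 and 5.67 CPM to 14.3, 14.4 and 15 CPM, a log2 fold change of 1.48 ± 0.10. Mei1, Mei4 and Prdm9 were called higher in the triple mutant too. Mei4 reached 19.4, 19.4 and 18.3 CPM from 6.52, 4.54 and 6.399 CPM in the NK set, a log2 fold change of 1.75 ± 0.12. Mei1 reached 3.17, 3.803 and 3.598 CPM from 1.43, 0.741 and 1.07 CPM, a log2 fold change of 1.74 ± 0.28. Prdm9 reached 2.83, 3.09 and 3.56 CPM from 1.67, 1.39 and 1.11 CPM, a log2 fold change of 1.22 ± 0.26. Zcwpw1 was higher in each triple-mutant library than in any NK library, but its log2 fold change of 0.89 ± 0.065 (SE, edgeR adjusted p = 2.2e-10) was below the fold threshold, and with the WT set as the control it was 1.19 and called. Spo11 had 1 to 3 counts in each of these 6 libraries and was not tested there.

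The genes of strand invasion did not move as a block. DMC1 is the meiotic recombinase, MND1 and PSMC3IP (HOP2) form its partner complex, MEIOB and SPATA22 protect single-stranded DNA, HSF2BP binds BRCA2, and TEX15 is needed for break repair in male germ cells. Dmc1 went in opposite directions in the 2 mutants. It rose from 28.1, 26.4 and 24.9 CPM to 95.05, 89.3 and 91.04 CPM on loss of Setdb1, a log2 fold change of 1.81 ± 0.05 (SE, edgeR adjusted p = 5.72e-16). It fell from 44.9, 48.6 and 54.6 CPM to 14.8, 12.5 and 16.6 CPM on loss of all Hp1 genes, a log2 fold change of -1.71 ± 0.09 (SE, edgeR adjusted p = 9.95e-13). On TPM this was -0.85, short of the fold threshold, where all genes had a median of 0.41. Mnd1 was called lower in both, on counts, and it was the 1 gene of the set called lower in Setdb1Δ/Δ cells. It went from 24.6, 25.6 and 26.9 CPM to 11.8, 11.98 and 11.1 CPM on loss of Setdb1, a log2 fold change of -1.13 ± 0.07. On TPM this was -0.64 and not called, where all genes had a median of 0.49. It went from 26.2, 25.8 and 26.5 CPM to 7.33, 4.99 and 7.89 CPM in the triple mutant, a log2 fold change of -1.91 ± 0.12. Both genes were well expressed in control ESCs. Their partner Psmc3ip had log2 fold changes of -0.32 ± 0.072 and -0.46 ± 0.076, below the threshold in both.

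Tex15 and Spata22 rose on loss of Setdb1. Tex15 went from 25.1, 23.4 and 24.03 CPM to 412, 416 and 396 CPM, a log2 fold change of 4.09 ± 0.041 (SE, edgeR adjusted p = 2.36e-22). On loss of all Hp1 genes it went from 16.9, 18.8 and 22.98 CPM to 36.5, 37.7 and 40.1 CPM, and its log2 fold change of 1 ± 0.086 lay on the threshold. That call was lost without triple-mutant replicate 2 (0.998) or 3 (0.96) and without NK replicate 1 (0.887) or 2 (0.954), and with the WT set as the control (0.842). Genes of chromosome 8, where Tex15 lies, had a median log2 fold change of 0.52 in this comparison. Spata22 went from 0.2, 0 and 0.118 CPM to 25.1, 21.1 and 21.98 CPM in Setdb1Δ/Δ cells, a log2 fold change of 7.62 ± 0.63. It lies within the locus of Gm49340 on the same strand, which rose by 7.26 on the log2 scale, so that reads of the 2 may have been split between them. Meiob went from 0.3, 0.395 and 0.531 CPM to 3.31, 4.03 and 3.21 CPM, a log2 fold change of 3.12 ± 0.32, and overlapped between the NK set and the triple mutant. Hsf2bp was the reverse case, called in the triple mutant and not in Setdb1Δ/Δ cells. It went from 18.8, 20.4 and 17.5 CPM to 48.9, 50.3 and 49.9 CPM in the triple mutant, a log2 fold change of 1.43 ± 0.064. In Setdb1F/F it was already at 66.4, 69.3 and 64.9 CPM and in Setdb1Δ/Δ cells at 91.2, 92.3 and 94.1 CPM, a log2 fold change of 0.48 ± 0.036.

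Of the crossover genes, MSH4 and MSH5 form the clamp that holds recombination intermediates, TEX11 works with them, and MLH3 is the endonuclease subunit that resolves them. Msh4 had the largest change in the triple mutant among the 32 genes of the set tested there. It went from 0.786, 0.278 and 0.388 CPM to 10.4, 10.4 and 11.3 CPM, a log2 fold change of 4.48 ± 0.30 (SE, edgeR adjusted p = 1.28e-12). On loss of Setdb1 it went from 1.05, 1.19 and 1.06 CPM to 10.1, 8.53 and 7.83 CPM, a log2 fold change of 3.01 ± 0.20. Msh5, its partner, went from 1.71, 1.297 and 1.84 CPM to 4.85, 3.803 and 4.57 CPM in the triple mutant, a log2 fold change of 1.48 ± 0.23. It went from 1.4, 1.58 and 2.303 CPM to 8.18, 7.01 and 8.92 CPM in Setdb1Δ/Δ cells, a log2 fold change of 2.22 ± 0.19. The partners moved the same way in both mutants. With the WT set as the control the log2 fold change of Msh5 in the triple mutant was 0.79 and not called. Tex11, on the X chromosome, went from 8.401, 9.09 and 6.73 CPM to 166, 167 and 158 CPM in Setdb1Δ/Δ cells, a log2 fold change of 4.35 ± 0.079. Its level went from 3.15, 2.27 and 1.89 CPM in the NK set to 5.49, 5.28 and 4.57 CPM in the triple mutant, a log2 fold change of 1.10 ± 0.21, and without NK replicate 3 this was 0.93 and not called. Mlh3, which is also used in mismatch repair, had log2 fold changes of -0.41 ± 0.046 and -0.50 ± 0.068 and was not called.

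MAJIN anchors telomeres to the nuclear envelope during pairing. Majin went from 0.5501, 0.903 and 0.5904 CPM to 46.5, 43.1 and 47.5 CPM in Setdb1Δ/Δ cells, a log2 fold change of 6.08 ± 0.23. In the triple mutant it went from 0.185, 0.232 and 0.242 CPM, 4 or 5 counts in a library, to 1.03, 1.57 and 1.51 CPM, a log2 fold change of 2.65 ± 0.48. It could pass the filter there only through the triple mutant, which set its direction. Both changes left no overlap between the groups, and the level reached on loss of Setdb1 was the higher.

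STRA8 is the factor through which retinoic acid starts meiosis, and MEIOC keeps germ cells in prophase by holding back mitotic transcripts. Stra8 had the highest level per length of all 35 genes in Setdb1Δ/Δ cells, in TPM. In CPM it went from 6.35, 7.96 and 7.79 CPM to 509.6, 516 and 497 CPM, a log2 fold change of 6.13 ± 0.068 (SE, edgeR adjusted p = 4.22e-23). In the triple mutant it was at 3.903, 4.99 and 4.37 CPM against 1.48, 3.52 and 2.67 CPM in the NK set, separated but with a log2 fold change of 0.82 ± 0.25 that was not called, and without NK replicate 2 it was 1.11 and called, as it was with the WT set as the control (1.03). Genes of chromosome 6, where Stra8 lies, had a median log2 fold change of 0.38 in the triple mutant. Meioc went from 7.601, 9.65 and 8.74 CPM to 217, 218 and 212 CPM on loss of Setdb1, a log2 fold change of 4.66 ± 0.067 (SE, edgeR adjusted p = 3.58e-21). In the triple mutant it overlapped its control in CPM, at 27.6 ± 1.77 CPM (SD, n = 3) against 24.9 ± 1.13 CPM. In TPM its triple-mutant libraries, at 10.9, 10.02 and 11.4 TPM, lay above the NK libraries, at 7.35, 7.94 and 7.34 TPM, a log2 fold change of 0.51 below the fold threshold.

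BRDT is the testis member of the BET family, which reads acetylated histones, and TEX14 makes the bridges between germ cells. Brdt went from 0.5501, 1.52 and 1.18 CPM to 64.1, 61.7 and 61.5 CPM on loss of Setdb1, a log2 fold change of 5.88 ± 0.21 (SE, edgeR adjusted p = 1.2e-17). In the triple mutant it went from 1.16, 1.204 and 1.75 CPM to 4.42, 6.703 and 5.42 CPM, a log2 fold change of 2.04 ± 0.24. The control levels of Brdt in the NK set and Setdb1F/F overlapped. Tex14 had log2 fold changes of 0.58 ± 0.043 in Setdb1Δ/Δ cells and 0.67 ± 0.067 in the triple mutant, with no overlap between groups in either and neither past the fold threshold.

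**Figure D2:**
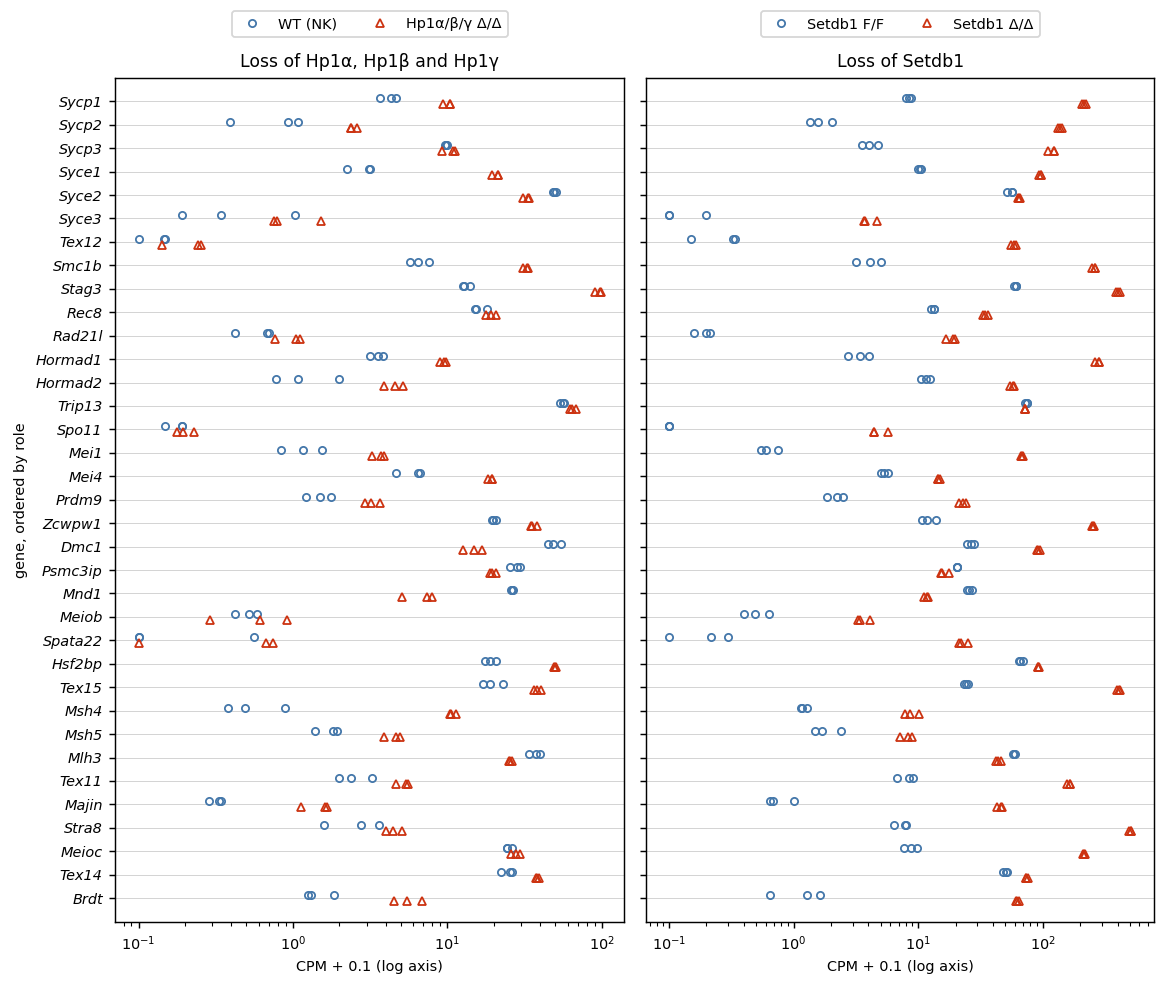
CPM + 0.1 on a log axis of the 35 meiosis genes (rows, ordered by role) in each library, for the triple mutant with the NK wild-type set (left) and for Setdb1Δ/Δ with Setdb1F/F cells (right). Circles are control and triangles mutant libraries, 3 of each. All Setdb1Δ/Δ libraries lay above all Setdb1F/F libraries for 31 genes, and all triple-mutant libraries above all NK libraries for 22. The share of all genes so separated was not counted, so these numbers have no background. Without a fold threshold 12990 of 16457 genes were called in Setdb1Δ/Δ cells and 14283 of 17501 in the triple mutant.

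The change in each mutant was tested against that in the other, as the log2 fold change in the triple mutant minus that in Setdb1Δ/Δ cells over the 12 libraries. The controls were NK wild-type ESCs for the one and Setdb1F/F ESCs for the other, with summed pluripotency markers at 2541 to 2547 and 6597 to 6621 CPM. The genes lost, the controls and the states of the cells therefore cannot be told apart in this difference. Of the 35 genes 23 were called, 22 with the smaller or more negative change in the triple mutant and 1 with the larger. Of all genes 31.9% were called, 16.5% lower and 15.4% higher. Tex12, Spo11 and Spata22 passed the filter here only through Setdb1Δ/Δ cells, which set their direction. Syce3, Rad21l and Meiob had under 10 counts in every Setdb1F/F library. With at least 10 counts required in every library, 25 were tested and 13 called, all lower. Of all genes 3927 of 13121 were then called, 2003 lower and 1924 higher. Msh4 was the one with the larger change in the triple mutant, by 1.44 ± 0.37 (SE, edgeR adjusted p = 0.00112). Sycp3, Meioc, Stra8 and Zcwpw1, which were not called in the triple mutant, had differences of -4.79, -4.49, -5.33 and -3.53. Sycp1, Sycp2, Smc1b, Hormad1, Mei1, Prdm9, Tex15, Tex11, Majin and Brdt were called higher in both cells and still differed, by -5.30 to -2.26. Dmc1, which rose in the one and fell in the other, differed by -3.54 ± 0.11. Stag3, Syce1, Hormad2, Mei4 and Msh5 rose in both, and their differences, of 0.13 ± 0.071, -0.33 ± 0.14, -0.45 ± 0.26, 0.24 ± 0.16 and -0.76 ± 0.29, were not called. The difference of Spata22 rests on NK replicate 1, which held 10 of the 10 counts of its group, and without it was -1.62 with an adjusted p of 0.858 in edgeR.

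**Figure D3:**
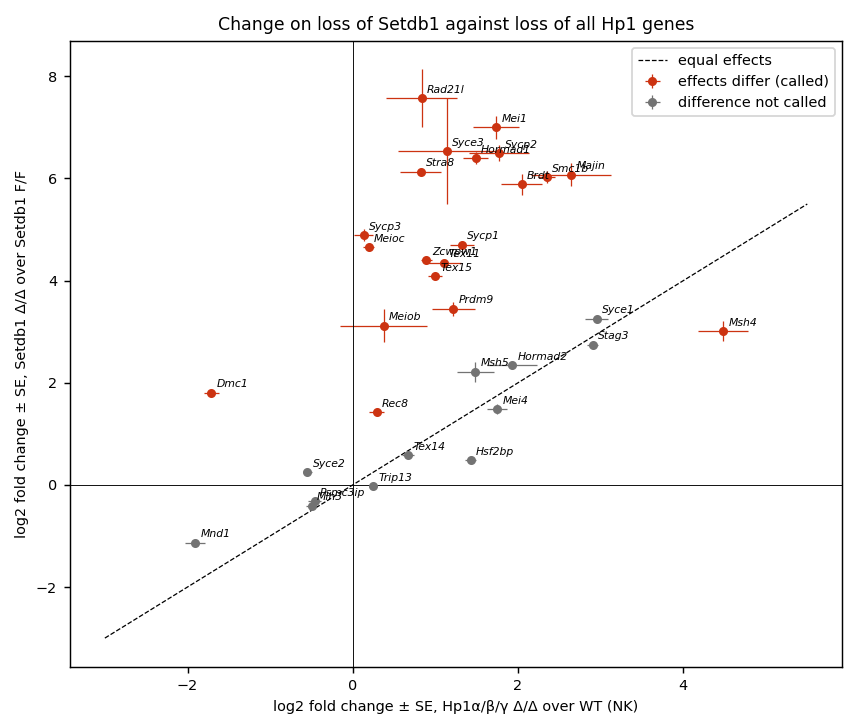
Log2 fold change ± SE in Setdb1Δ/Δ cells (vertical) against that in the triple mutant (horizontal) for the 32 meiosis genes tested in both. The dashed line marks equal effects, red points are genes whose effects differed in the test of the difference, and grey points those not called there. Most red points lie far above the line, Msh4 alone lies below it in red, and Dmc1 lies to the left of 0 and above it.

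The triple mutant was also set against Hp1α/βΔ/Δ cells. The study describes its double-mutant RNA-seq as from constitutive knockout ESCs, and names floxed Hp1γ and Cre for the triple-mutant experiment. Loss of Hp1γ and other differences in how the cells were made therefore cannot be told apart. Of 33 tested meiosis genes 22 were called, 19 higher and 3 lower, where 41.4% of all genes were called, 25.4% higher and 16% lower. This comparison shares its mutant libraries with the one against the NK set. Sycp1 was lower in Hp1α/βΔ/Δ than in the NK set. It was at 0.722, 0.664 and 0.799 CPM there, a log2 fold change to the triple mutant of 3.80 ± 0.22 (SE, edgeR adjusted p = 1.82e-11). Tex15 was at 10.4, 10.6 and 9.73 CPM in Hp1α/βΔ/Δ and rose by a log2 fold change of 1.92 ± 0.079, and Zcwpw1 was at 13.3, 10.5 and 10.5 CPM and rose by 1.68 ± 0.092. Msh4 stood at 0.155, 0.705 and 0.705 CPM in Hp1α/βΔ/Δ, a log2 fold change to the triple mutant of 4.32 ± 0.32. Rad21l had 1 or 2 counts in each Hp1α/βΔ/Δ library and a log2 fold change of 3.73 ± 0.77. It passed the filter here only through the triple mutant, which set its direction. Majin, which was not tested between Hp1α/βΔ/Δ and the NK set, also passed through the triple mutant, and the counts of calls include both. The other genes called higher were Sycp2, Sycp3, Syce1, Smc1b, Stag3, Hormad1, Mei1, Mei4, Prdm9, Hsf2bp, Msh5, Tex11, Majin and Brdt, with log2 fold changes of 1.037 to 3.02. Dmc1, Mnd1 and Meiob were lower, with log2 fold changes of -1.59 ± 0.095, -1.54 ± 0.14 and -1.29 ± 0.44, and on TPM Dmc1 was at -0.69 and not called. The calls of Sycp3, Prdm9 and Meiob were each lost without 1 library. Sycp3 was at 0.986 without triple-mutant replicate 3 and 0.947 without Hp1α/βΔ/Δ replicate 2, Prdm9 at 0.875 without Hp1α/βΔ/Δ replicate 2, and Meiob at -0.936 without triple-mutant replicate 2.

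Among the single and double mutants Hormad2 was the gene called most often, higher in 5 of 6. It was at 1.897, 0.973 and 0.679 CPM in the NK set, 4.03, 3.27 and 3.53 CPM in Hp1αΔ/Δ, 3.41, 3.05 and 4.32 CPM in Hp1βΔ/Δ and 2.72, 3.67 and 3.38 CPM in Hp1γΔ/Δ. It was at 3.09, 4.11 and 2.21 CPM in Hp1α/βΔ/Δ. The log2 fold changes were 1.59 ± 0.31 in Hp1αΔ/Δ, 1.58 ± 0.35 in Hp1βΔ/Δ, 1.45 ± 0.32 in Hp1γΔ/Δ and 1.40 ± 0.35 in Hp1α/βΔ/Δ, all against the same 3 NK libraries. Against the WT set, at 1.33, 1.03 and 1.601 CPM, it was at 2.47, 2.84 and 2.74 CPM in Hp1β/γΔ/Δ, a log2 fold change of 1.02 ± 0.23 that fell to 0.985 without Hp1β/γΔ/Δ replicate 2 and 0.868 without WT replicate 2. In Hp1α/γΔ/Δ, at 1.22, 1.98 and 1.63 CPM, it overlapped the WT set. Every mutant library with a call lay above every library of its control, and none of these mutants reached the level in Setdb1F/F. In TPM the groups overlapped in Hp1αΔ/Δ, Hp1βΔ/Δ, Hp1γΔ/Δ and Hp1α/βΔ/Δ, and there the call was lost, with log2 fold changes of 1.64, 1.57, 0.83 and 0.56.

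Meiob was called higher in each single mutant and in Hp1α/βΔ/Δ, at low counts. It was at 0.416, 0.324 and 0.485 CPM in the NK set, 7 to 10 counts in a library, and at 1.48, 1.15 and 2.05 CPM in Hp1αΔ/Δ, a log2 fold change of 1.91 ± 0.42. It was at 1.39, 1.196 and 1.16 CPM in Hp1γΔ/Δ and 1.39, 1.25 and 1.27 CPM in Hp1α/βΔ/Δ, with log2 fold changes of 1.59 ± 0.42 and 1.66 ± 0.41. It was at 0.892, 0.638 and 1.17 CPM in Hp1βΔ/Δ, a log2 fold change of 1.11 ± 0.42 (SE, edgeR adjusted p = 0.0437). With the WT set as the control the values in Hp1βΔ/Δ, Hp1γΔ/Δ and Hp1α/βΔ/Δ were 0.413, 0.904 and 0.958 and none was called. The call in Hp1βΔ/Δ was also lost without any 1 of 5 libraries, with values of 0.873 to 1.25. Those were Hp1βΔ/Δ replicates 1 and 3 and each of the 3 NK libraries. In TPM the direction turned in these 4 mutants, to log2 fold changes of -1.38 to -0.61 that were not called, with the NK libraries at 0.79, 0.59 and 49.6 TPM. Spata22, the partner of MEIOB, was called in Hp1αΔ/Δ, at 0.648, 0.928 and 0.763 CPM against 0.463, 0 and 0 CPM in the NK set, a log2 fold change of 2.28 ± 0.80 (SE, edgeR adjusted p = 0.0159). This call was lost without Hp1αΔ/Δ replicate 2 (2.13) and without NK replicate 2 (1.70) or 3 (1.73).

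Stra8 was called higher in 3 of the mutants and lower in another. It was at 1.48, 3.52 and 2.67 CPM in the NK set, 7.499, 7.64 and 9.496 CPM in Hp1αΔ/Δ and 12.8, 9.82 and 11.5 CPM in Hp1γΔ/Δ, with log2 fold changes of 1.68 ± 0.22 and 2.14 ± 0.21 (SE, edgeR adjusted p = 7.98e-08). In Hp1α/βΔ/Δ, at 5.41, 4.73 and 5.17 CPM, every library was above every NK library, and the log2 fold change of 0.99 ± 0.24 fell just short of the fold threshold. It was at 2.17, 2.37 and 2.15 CPM in the WT set and 5.63, 11.7 and 5.78 CPM in Hp1α/γΔ/Δ, a log2 fold change of 1.73 ± 0.30, with the highest value in the replicate that stood apart. In Hp1β/γΔ/Δ it was at 0.529, 0.131 and 0.425 CPM, a log2 fold change of -2.60 ± 0.38 (SE, edgeR adjusted p = 1.75e-05), and every library was below every WT library. Meioc was called in Hp1α/γΔ/Δ alone of these mutants, at 8.71, 5.12 and 8.96 CPM against 30.01, 28.9 and 29.5 CPM in the WT set, a log2 fold change of -1.99 ± 0.22.

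The synaptonemal complex genes moved in both directions. Hp1β/γΔ/Δ cells had the largest rises. Sycp2 was at 7.45, 6.63 and 6.18 CPM there against 0.938, 0.403 and 0.229 CPM in the WT set, a log2 fold change of 3.70 ± 0.33 (SE, edgeR adjusted p = 3.15e-08). Syce3 was at 3.83, 5.19 and 4.44 CPM against 0.642, 0.537 and 0.823 CPM, a log2 fold change of 2.74 ± 0.25 (SE, edgeR adjusted p = 1.28e-07). Its level in Hp1β/γΔ/Δ overlapped that in Setdb1Δ/Δ cells, where the control was near 0. Sycp1 fell in the same Hp1β/γΔ/Δ cells, at 0.837, 1.31 and 1.31 CPM against 2.96, 2.15 and 2.29 CPM, a log2 fold change of -1.08 ± 0.25. Without Hp1β/γΔ/Δ replicate 1 or WT replicate 1 it was -0.899 and -0.935 and not called. Sycp1 was also lower in Hp1αΔ/Δ, at 1.94, 1.19 and 1.002 CPM, and in Hp1α/βΔ/Δ, at 0.722, 0.664 and 0.799 CPM, against 3.56, 4.21 and 4.56 CPM in the NK set. These were log2 fold changes of -1.57 ± 0.26 and -2.49 ± 0.28 (SE, edgeR adjusted p = 6.49e-07). In Hp1α/γΔ/Δ it was higher, at 4.79, 5.005 and 6.34 CPM, a log2 fold change of 1.09 ± 0.21. That call was lost without Hp1α/γΔ/Δ replicate 3 (0.942) or WT replicate 2 (0.996).

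Sycp3, Syce1 and Syce3 were called in Hp1βΔ/Δ and in Hp1α/γΔ/Δ. Sycp3 was lower in Hp1βΔ/Δ, at 2.68, 4.65 and 5.97 CPM against 9.58, 9.63 and 9.79 CPM in the NK set, a log2 fold change of -1.13 ± 0.22 that was -0.873 without Hp1βΔ/Δ replicate 1. It was lower in Hp1α/γΔ/Δ, at 2.98, 4.95 and 3.45 CPM against 13.9, 9.41 and 11.4 CPM in the WT set, a log2 fold change of -1.66 ± 0.22. Syce1 was higher in Hp1βΔ/Δ, at 6.62, 6.11 and 6.55 CPM against 3.01, 2.13 and 3.05 CPM, a log2 fold change of 1.22 ± 0.18. Syce1 and Sycp3, both parts of the complex, thus went opposite ways in these cells. Syce1 was higher in Hp1α/γΔ/Δ as well, at 6.899, 10.01 and 6.76 CPM against 1.78, 2.06 and 2.15 CPM, a log2 fold change of 1.93 ± 0.20. Syce3 was higher in Hp1βΔ/Δ, at 1.103, 2.01 and 1.31 CPM against 0.925, 0.0926 and 0.242 CPM, a log2 fold change of 1.78 ± 0.61. It was lower in Hp1α/γΔ/Δ, at 0.147, 0.33 and 0.1399 CPM, a log2 fold change of -1.74 ± 0.46. Both calls of Syce3 were lost without single libraries. In Hp1βΔ/Δ these were mutant replicate 2 (1.49) and NK replicates 2 (1.31) and 3 (1.51), and in Hp1α/γΔ/Δ mutant replicates 1 (-1.56) and 3 (-1.54) and WT replicate 3 (-1.56).

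In Hp1α/γΔ/Δ the 8 pluripotency markers summed to 4323 to 6264 CPM, against 2389 to 2469 CPM in the WT set, and 5 were called higher and 0 lower. The 9 fibroblast markers summed to 9.79 to 11.2 CPM, against 42.3 to 50.7 CPM, and all 6 that were tested were called lower. The part of these differences in the calls of meiosis genes was not tested. The remaining calls in Hp1α/γΔ/Δ were spread over roles. Smc1b was higher, at 11.3, 10.1 and 11.7 CPM against 4.195, 2.91 and 3.84 CPM in the WT set, a log2 fold change of 1.56 ± 0.18. Stag3 was higher, at 36.1, 25.6 and 34.8 CPM against 16.3, 14.1 and 15.9 CPM, a log2 fold change of 1.02 ± 0.17. Hsf2bp was higher, at 64.1, 88.7 and 68.7 CPM against 18.1, 17.5 and 19.6 CPM, a log2 fold change of 1.96 ± 0.13 (SE, edgeR adjusted p = 9.88e-05). Hsf2bp and Stag3 were also among the genes that stood higher in Setdb1F/F than in the wild-type sets. Tex14 was higher, at 51.3, 46.8 and 50.6 CPM against 21.5, 21.7 and 21.3 CPM, a log2 fold change of 1.17 ± 0.11. The libraries of mutant and control did not overlap for any of these 4 genes. Mei1 was lower, at 0.343, 0.22 and 0.466 CPM against 0.839, 0.986 and 0.961 CPM, a log2 fold change of -1.44 ± 0.37. Msh5 was lower, at 1.32, 1.59 and 1.12 CPM against 2.71, 2.87 and 2.33 CPM, a log2 fold change of -1.02 ± 0.22. Brdt was lower here, the opposite of its direction in Setdb1Δ/Δ cells. It was at 0.783, 1.1 and 0.886 CPM against 2.27, 1.66 and 1.97 CPM, a log2 fold change of -1.13 ± 0.25. For these lower genes, too, every mutant library lay below every WT library. Without replicate 2, the one that stood apart, 15 meiosis genes were called in Hp1α/γΔ/Δ, 8 higher and 7 lower. Over the fits without 1 library, 10 to 15 meiosis genes and 3230 to 3911 of all genes were called, against 3657 of all genes with every library. The calls of Stag3, Mei1 and Msh5 were lost without other libraries. Stag3 was at 0.928 and 0.957 without mutant replicates 1 and 3 and 0.958 without WT replicate 2, Mei1 at -1.40 and -1.42 without WT replicates 2 and 3, and Msh5 at -0.906 without mutant replicate 3 and -0.954 without WT replicate 2.

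Hp1βΔ/Δ and Hp1β/γΔ/Δ cells shared a fall of Hormad1. It was at 1.21, 1.32 and 1.796 CPM in Hp1βΔ/Δ against 3.05, 3.71 and 3.44 CPM in the NK set, a log2 fold change of -1.25 ± 0.25. It was at 1.19, 1.702 and 0.888 CPM in Hp1β/γΔ/Δ against 3.95, 2.51 and 2.42 CPM in the WT set, a log2 fold change of -1.23 ± 0.28 that was -0.976 without WT replicate 1. In both comparisons all mutant libraries were below all controls. Dmc1, which fell in the triple mutant, was called lower in Hp1βΔ/Δ alone among the other Hp1 mutants, at 18.6, 20.6 and 21.6 CPM against 44.9, 48.6 and 54.6 CPM, a log2 fold change of -1.30 ± 0.086 (SE, edgeR adjusted p = 6.05e-07). Tex14 was lower in Hp1βΔ/Δ, at 10.3, 8.93 and 8.74 CPM against 22.2, 26.3 and 25.4 CPM, a log2 fold change of -1.42 ± 0.098 (SE, edgeR adjusted p = 7.76e-07). Msh5 was at 0.682, 0.957 and 0.485 CPM in Hp1βΔ/Δ against 1.71, 1.297 and 1.84 CPM, a log2 fold change of -1.19 ± 0.36. That call was lost without Hp1βΔ/Δ replicate 3 (-0.982) or NK replicates 1 (-1.15) or 3 (-1.09). For Dmc1, Tex14 and Msh5 the Hp1βΔ/Δ libraries lay below the NK libraries without overlap. Mei1 was lower in Hp1αΔ/Δ, at 0.231, 0.5302 and 0.286 CPM against 1.43, 0.741 and 1.07 CPM, a log2 fold change of -1.61 ± 0.48, which was -1.35 and not called without NK replicate 1. Brdt was higher in Hp1β/γΔ/Δ, at 5.68, 4.93 and 5.601 CPM against 2.27, 1.66 and 1.97 CPM, a log2 fold change of 1.47 ± 0.17. Mei4 was lower in Hp1β/γΔ/Δ, at 1.15, 1.44 and 1.43 CPM against 3.06, 2.64 and 2.61 CPM, a log2 fold change of -1.04 ± 0.21. It was -0.939 without Hp1β/γΔ/Δ replicate 1 and -0.967 without WT replicate 1, below the fold threshold. On TPM further calls were lost. They were those of Mei1, Sycp1 and Spata22 in Hp1αΔ/Δ, with log2 fold changes of -0.98, -0.76 and 2.49, and of Syce3 in Hp1βΔ/Δ, with 2.24. Sycp1, Stag3 and Smc1b in Hp1α/γΔ/Δ were at 0.64, 0.81 and 0.93, and Sycp1, Mei4 and Brdt in Hp1β/γΔ/Δ at -0.84, -0.87 and 0.996.

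With the other wild-type set as the control, some of these calls fell below the fold threshold or lost significance. Sycp1 in Hp1αΔ/Δ was at -0.827. In Hp1α/γΔ/Δ, Sycp1 was at 0.36, Smc1b at 0.736, Msh5 at -0.303, Tex14 at 0.979 and Brdt at -0.602. Other genes gained a call with the other set. They were Msh5 in Hp1αΔ/Δ (-1.51), and Sycp3 (-1.075) and Syce1 (1.169) in Hp1γΔ/Δ. In Hp1α/βΔ/Δ they were Sycp3 (-1.176), Tex15 (-1.105) and Stra8 (1.187). In Hp1α/γΔ/Δ they were Mei4 (-1.78) and Psmc3ip (1.034), and in Hp1β/γΔ/Δ Tex11 (-1.631).

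**Figure D4:**
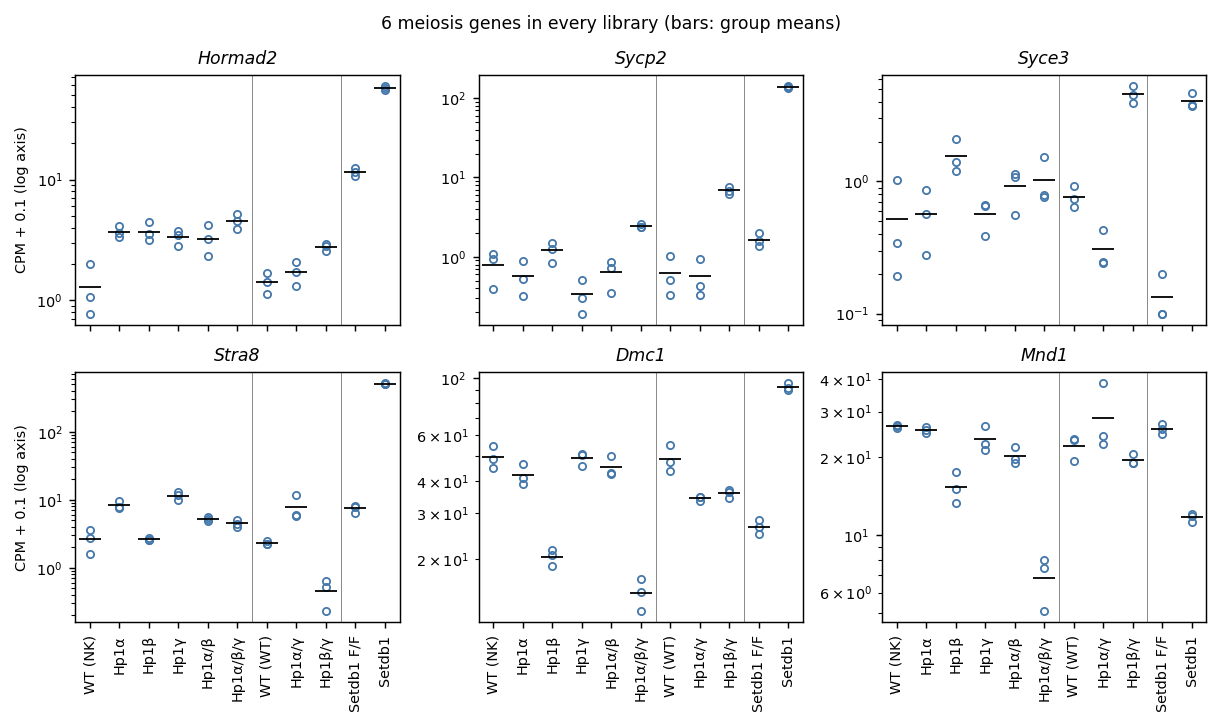
CPM + 0.1 on a log axis of Hormad2, Sycp2, Syce3, Stra8, Dmc1 and Mnd1 in every library (circles, 3 for each condition), with group means as bars. Vertical lines separate the NK, WT and Setdb1F/F controls with their mutants, and each panel has its own scale. Hormad2 lay above the NK set in each of its mutants, Sycp2 and Syce3 were raised in Hp1β/γΔ/Δ, Stra8 was lowest there, and Dmc1 and Mnd1 were lowest in the triple mutant.

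Between the WT and NK wild-type sets 1 of 31 tested meiosis genes was called, lower in the WT set, where 5.68% of all genes were called, 2.55% higher and 3.12% lower in the WT set, so that the count was at the background. That gene was Mei4, at 3.06, 2.64 and 2.61 CPM in the WT set and 6.52, 4.54 and 6.399 CPM in the NK set, a log2 fold change of -1.07 ± 0.19 that was -0.976 and -0.994 without NK replicate 1 or 3. Setdb1F/F ESCs had Hsf2bp at 66.4, 69.3 and 64.9 CPM, Stag3 at 61.5, 61.6 and 58.5 CPM and Tex14 at 51.2, 52.04 and 47.8 CPM, each above all 6 wild-type libraries. Meioc and Dmc1 went the other way, at 7.601, 9.65 and 8.74 CPM and 28.1, 26.4 and 24.9 CPM in Setdb1F/F and no lower than 24.2 and 43.7 CPM in the wild-type libraries. These values are set side by side, since no test was made between Setdb1F/F and wild-type cells.

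Per length, in the TPM that the authors deposited, the genes ranked in another order before and after the loss of Setdb1. In Setdb1F/F Syce2 was highest, at a mean of 91.3 ± 2.46 TPM (SD, n = 3), followed by Hsf2bp at 64.6 ± 3.10, Mnd1 at 55.0 ± 2.51 and Trip13 at 40.01 ± 0.774 TPM, and the libraries of neighbours in this order did not overlap. In Setdb1Δ/Δ cells Stra8 was highest at 803 ± 11.2 TPM, followed by Hormad1 at 376 ± 11.4, Zcwpw1 at 284 ± 15.3, Sycp3 at 249 ± 13.4 and Stag3 at 189 ± 13.5 TPM, again without overlap. Sycp1, Syce1, Syce2 and Tex12 came next, at 144 to 159 TPM, and Sycp1 with Syce1, Syce1 with Syce2 and Syce2 with Tex12 overlapped. Spo11 was the lowest of all 35 at 3.20 ± 0.594 TPM. In the NK set Syce2 and Mnd1 led, at 79.7 ± 0.701 and 60.0 ± 1.18 TPM, and in the triple mutant Stag3 at 77.2 ± 10.8 and Syce2 at 69.9 ± 1.34 TPM, which overlapped. The sum of the 35 genes in CPM was 560.2 to 572 in Setdb1F/F and 3885 to 4011 in Setdb1Δ/Δ libraries, and 416 to 439 in the NK set and 612 to 621 in triple-mutant libraries.

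A further list of 41 meiosis genes, all of them matched, was set beside them. In Setdb1Δ/Δ cells 23 of 40 tested were called higher and 0 lower, where 29.9% of all genes were called, 18.5% higher. On loss of all Hp1 genes 16 of 37 were called higher and 1 lower, where 25.1% of all genes were called higher and 17.1% lower. In both directions together this was 45.9% of those tested, near the 42.3% of all genes, but the split by direction was not. The largest changes were those of Ccnb3, a cyclin of meiosis, with a log2 fold change of 9.45 ± 0.35 in Setdb1Δ/Δ cells, and Meiosin, the partner of STRA8, with 8.25 ± 0.22. Zfp541, a pachytene regulator, had 7.76 ± 0.40 and Rnf212, a crossover factor, 6.37 ± 0.18 in the same cells. Terb1, which joins MAJIN at telomeres, rose in both cells, by 6.26 ± 0.20 in the triple mutant and 5.88 ± 0.16 in Setdb1Δ/Δ cells, and Fkbp6, a co-chaperone of the germline, by 5.88 ± 0.51 and 5.03 ± 0.25. In the single and double mutants the share called was 5.7% of those tested in Hp1αΔ/Δ, 19.4% in Hp1βΔ/Δ, 8.3% in Hp1γΔ/Δ, 14.3% in Hp1α/βΔ/Δ, 21.6% in Hp1α/γΔ/Δ and 13.9% in Hp1β/γΔ/Δ, 2 to 8 genes of 35 to 37. The shares of all genes, in the same order, were 4.87%, 9.1%, 5.59%, 8.15%, 23.1% and 11.9%.

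Other cell markers moved beside these genes. The 6 early germ cell markers, Ddx4 and Dazl among them, summed to 72.9 to 78.5 CPM in Setdb1F/F and 2001 to 2080 CPM in Setdb1Δ/Δ libraries, and to 75.6 to 78.4 CPM in the NK set and 170 to 182 CPM in triple-mutant libraries. Of these 6, 4 were called higher in each of these mutants. Dnd1 was not among them, with log2 fold changes of 0.037 ± 0.11 in Setdb1Δ/Δ cells and -1.38 ± 0.12 in the triple mutant, where it was called lower, and Nanos3 was not called in the one and not tested in the other. Dazl, an RNA-binding protein of germ cells, went from 12.95, 11.3 and 10.6 CPM to 1101, 1103 and 1068 CPM on loss of Setdb1. The 6 spermatid markers, protamines and transition proteins among them, summed to at most 0.772 CPM in any library. The 7 oocyte markers summed to 1.45 to 2.42 CPM in Setdb1F/F and 3.82 to 4.22 CPM in Setdb1Δ/Δ libraries, where 2 of them were tested and 1 was called higher. They stood higher in wild-type ESCs, at 11.2 to 12.1 CPM in the NK set and 11.99 to 14.0 CPM in the WT set, and were at 8.28 to 10.6 CPM in the triple mutant. Spermatid markers were thus at or near 0 where the prophase genes were high. The part of the germ cell markers, of the lower summed pluripotency markers and of the lower summed fibroblast markers in the meiosis results was not tested.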

How the data were processed

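RNA was taken with TRIzol from ESCs plated on gelatin to remove feeder cells, and sequenced as paired 150 bp reads. Per the labels and the study's methods, the authors aligned reads with TopHat2 2.1.1 to GRCm38.p5 and deposited RSEM expected counts and TPM per gene, in 8 tables that each pair a mutant with its control. The library kit is named in differing ways, and the strand setting of counting was not given in the sources used here. The deposited tables also hold the authors' own fold changes and p-values, which were not used.

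Control columns repeated between tables were identical in all 30 cases and were used once. Expected counts, of which 87.1% were whole, were rounded. Groups followed the genotype labels and, for the wild-type sets, the titles. The study names its 3 libraries a group biological replicates, and nothing in the labels says that they came from separate clones, so p-values measure the spread between these libraries.

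Genes were filtered by edgeR 4.0.16 (filterByExpr, minimum count 10), scaled by TMM and fitted by the quasi-likelihood test in R 4.3.3, each mutant with its control. Calls needed an adjusted p (Benjamini-Hochberg, all genes tested) below 0.05 and an absolute log2 fold change above 1. The SE of a log2 fold change was taken from the fitted means, with negative binomial weights and the moderated quasi-likelihood variance. The difference between effects was a contrast over 4 groups. The fits were tested on simulated data. A replicate number is shared by libraries of all groups, but deviations of same-numbered libraries correlated at -0.062 to 0.056, so the numbers were not taken to pair samples. Alternatives were RLE size factors, DESeq2 1.42.0, other filters, the other wild-type set, a joint fit, a replicate block, no fold threshold and leaving out each library. The deposited TPM, tested by limma 3.58.1 on log2(TPM + 0.1) over the genes that passed the count filter, was added after the data were seen.

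The 35 genes, the 41 further meiosis genes and the marker lists were chosen with earlier results of these data known. All 35 genes are named, those called with values by library, and of the 41 genes the 6 with the largest absolute log2 fold change among those called in Setdb1Δ/Δ or triple-mutant cells. Promoters came from RefSeq on GRCm38.p6, and coordinates from GENCODE M21. Counting intervals, at 95%, and floors of 3 counts cover counting error only.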

Additional observations from a re-analysis of the deposited data

Results flagged for a closer look

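Genes whose change in the triple mutant differed from that in Setdb1Δ/Δ cells were singled out by the test of the difference itself, an interaction contrast in edgeR over 12 libraries. Values are the log2 fold change in the triple mutant minus that in Setdb1Δ/Δ cells, and those of 23 of the 35 meiosis genes were called. Tex12, Spo11 and Spata22 passed the filter only through Setdb1Δ/Δ cells, which set their direction. In the synaptonemal complex, the differences were -3.41 for Sycp1, -4.76 for Sycp2, -4.79 for Sycp3, -5.45 for Syce3 and -6.74 for Tex12. Among the cohesins they were -3.71 for Smc1b, -1.16 for Rec8 and -6.76 for Rad21l, and Hormad1 differed by -4.93.

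Among the genes of break formation the differences were -5.30 for Mei1, -2.26 for Prdm9 and -3.53 for Zcwpw1. Spo11 was at -9.30, a fitted value that depends on the prior count because its Setdb1F/F libraries were all at 0. Among the genes of strand invasion they were -3.54 for Dmc1, -2.76 for Meiob, -6.35 for Spata22 and -3.11 for Tex15. The value of Spata22 was -1.62 and not called without NK replicate 1. Among the later genes they were 1.44 for Msh4, -3.28 for Tex11, -3.46 for Majin, -5.33 for Stra8, -4.49 for Meioc and -3.87 for Brdt. Msh4 was the gene of the 23 with the larger change in the triple mutant.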

How the results depend on the processing

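Of the 136 calls of meiosis genes over the 11 comparisons, the alternatives turned the direction of those of Meiob in 4 mutants, on the deposited TPM, to -0.885 in Hp1αΔ/Δ, -1.377 in Hp1βΔ/Δ, -0.825 in Hp1γΔ/Δ and -0.611 in Hp1α/βΔ/Δ, where NK replicate 3 was at 49.6 TPM. Over all alternatives 1760 repeats of these calls were called again and 90 fell short of a threshold, while 61 repeats of genes not called passed both thresholds. Of the repeats on counts in which a gene was not called before or after, 96 of 2566 changed sign. Leaving out 1 library at a time gave 29 called meiosis genes in Setdb1Δ/Δ cells in each case and 18 to 20 in the triple mutant, but 3 to 5 in Hp1γΔ/Δ, 4 to 7 in Hp1α/βΔ/Δ and 0 to 2 between the wild-type sets.

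Without the fold threshold, the genes called numbered 7126 in Hp1αΔ/Δ, 8100 in Hp1βΔ/Δ, 7394 in Hp1γΔ/Δ, 6881 in Hp1α/βΔ/Δ, 7361 in Hp1α/γΔ/Δ, 8408 in Hp1β/γΔ/Δ, 14283 in the triple mutant and 12990 in Setdb1Δ/Δ cells. They numbered 14048 between the triple mutant and Hp1α/βΔ/Δ, 3972 between the wild-type sets and 12051 for the difference of effects. The meiosis genes among them numbered 17, 20, 15, 19, 20 and 22 in the single and double mutants in the same order, and 9 between the wild-type sets. With at least 10 counts required in every library, which removes genes silent in a control, the genes called numbered 469 in Hp1αΔ/Δ, 572 in Hp1γΔ/Δ, 845 in Hp1α/βΔ/Δ, 1139 in Hp1β/γΔ/Δ, 4866 in the triple mutant, 3058 in Setdb1Δ/Δ cells, 4649 between the triple mutant and Hp1α/βΔ/Δ, 386 between the wild-type sets and 3927 for the difference of effects. Meiosis genes called then numbered 3 in Hp1αΔ/Δ and 13 for the difference of effects. With the WT set as the control, 1438 genes were called in Hp1αΔ/Δ, 2429 in Hp1βΔ/Δ and 1693 in Hp1γΔ/Δ, and 5 meiosis genes in Hp1α/βΔ/Δ. On the deposited TPM, an alternative chosen after seeing the data, 2 meiosis genes were called in Hp1αΔ/Δ and 1 in Hp1γΔ/Δ, 21 further calls of meiosis genes were lost and 11 gained over the comparisons, and the median log2 fold change of all genes was -0.38 in Hp1α/γΔ/Δ, where calls of all genes split into 562 higher and 3398 lower, against 1069 and 2588 on counts. On that scale the calls of meiosis genes split into 1 higher and 5 lower in Hp1βΔ/Δ, 0 and 2 in Hp1α/βΔ/Δ and 4 and 7 in Hp1α/γΔ/Δ, and between the triple mutant and Hp1α/βΔ/Δ calls of all genes split into 5578 and 1360, against 4431 and 2780. A joint fit gave 5 meiosis genes in Hp1γΔ/Δ, and no filter gave 5 in Hp1α/βΔ/Δ. Beyond the construction of each alternative, the cause was not tested.

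With the replicate number as a block, 19 meiosis genes were called in the triple mutant, 29 in Setdb1Δ/Δ cells and 23 for the difference of effects, and 6, 8, 3, 4, 13 and 8 in the single and double mutants. The libraries share a number and were not taken as paired.

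Calls at low counts were the least firm. Spata22 in Hp1αΔ/Δ was not called by DESeq2 (adjusted p = 0.303) or in the joint fit by edgeR (adjusted p = 0.113). Syce3 in Hp1α/γΔ/Δ was not called by DESeq2 (adjusted p = 0.0527), nor Meiob in Hp1βΔ/Δ (adjusted p = 0.144).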

Other observations

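In the deposited TPM, Meiob in the NK set had a mean of 16.98 with an SD of 28.2 over its 3 libraries, while its counts there were 7 to 10 in a library. Levels of Meiob are therefore given in the report as CPM.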
